A study of Homo sapiens with 12 samples.

Results

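The genes described here are GNAL and 9 further genes for alpha subunits of heterotrimeric G proteins, GNAS, GNAI1, GNAI2, GNAI3, GNAQ, GNA11, GNA12, GNA13 and GNAZ. They are 10 of the 85298 genes in the deposited table, and all 10 were among the 26366 genes that passed the filter on low counts. The cells were HEK 293T, a human embryonic kidney line that carries the SV40 large T antigen, and each library came from cells transduced with a lentivirus and collected 72 h later. The virus carried a scramble hairpin in 4 libraries, the SIDT2 hairpin shRNA-B in 4 and the SIDT2 hairpin shRNA-D in 4. SIDT2 is a lysosomal membrane protein linked to the uptake of RNA, and the stated purpose of the study was to find transcripts that depend on it. GNAL was selected on its values in these same libraries, namely its lower level with shRNA-B and the gap between the hairpins. Its values are therefore a description, with no test in any contrast. The other 9 genes were chosen by family membership, with earlier results of these data known.

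A G protein alpha subunit binds GDP at rest in a trimer with a beta and a gamma subunit. An activated receptor makes it exchange GDP for GTP, after which alpha and beta-gamma act on separate effectors until GTP is hydrolysed. GNAL encodes G-olf, which stimulates adenylyl cyclase and is best known from olfactory sensory neurons and from the striatum, while GNAS encodes the broadly expressed Gs with the same action. GNAI1, GNAI2, GNAI3 and GNAZ encode subunits that inhibit adenylyl cyclase and GNAQ and GNA11 encode activators of phospholipase C beta. GNA12 and GNA13 form a class of their own, G12/13.

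The last coding bases of each gene are shown because the end of an alpha subunit is part of the surface that meets the receptor. The lines below give the 33 coding bases before the stop codon, read 5′ to 3′ from GENCODE v29 transcripts, with capitals at the bases that differ from GNAL at the same position.
GNAL: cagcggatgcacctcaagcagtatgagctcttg
GNAS: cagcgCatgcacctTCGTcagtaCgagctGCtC
GNAI1: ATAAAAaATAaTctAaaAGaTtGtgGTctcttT
GNAI2: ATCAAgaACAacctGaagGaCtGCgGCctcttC
GNAI3: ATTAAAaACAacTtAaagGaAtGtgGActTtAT
GNAZ: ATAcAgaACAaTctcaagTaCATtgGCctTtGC
GNAQ: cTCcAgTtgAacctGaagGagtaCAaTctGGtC
GNA11: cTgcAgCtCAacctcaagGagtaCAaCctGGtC
GNA12: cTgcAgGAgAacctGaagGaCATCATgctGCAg
GNA13: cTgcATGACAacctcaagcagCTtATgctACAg
GNAS matched GNAL at 24 of the 33 bases, GNA11 at 21 and GNAQ at 20. The inhibitory class matched at 14 to 17 bases, with 14 in GNAI3, 15 in GNAI1, 16 in GNAZ and 17 in GNAI2. GNA12 matched at 17 and GNA13 at 19. The count of matching bases did not sort the genes into their classes: GNAQ and GNA11 matched each other at 28 bases and GNA12 and GNA13 at 25, but GNAQ matched GNA12 at 22 and GNAI2 matched GNAQ at 21, above the 20 at which GNAZ matched GNAI1 or GNAI3. Where transcripts of a gene ended differently, the most frequent end is shown, which 7 of 13 GNAS transcripts and 16 of 17 GNAI1 transcripts shared.

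These genes differ enough along their length for short reads to separate most of them. The longest exact stretch shared with GNAL on the same strand was 44 bases in GNAS, 32 in GNAI1 and in GNAI3, 26 in GNA11 and 13 to 21 in the rest. Of the 8412 distinct 31-base words in GNAL transcripts, 53 also occurred in another of the 10 genes. By contrast, 2194 (26.1%) occurred in transcripts of MPPE1, a neighbouring gene that overlaps GNAL. A word and its reverse complement were counted as the same, so shared words may lie on either strand. Words shared with any other gene made up 29.03% of GNAL, 17.4% of GNA11, 11.2% of GNAI3 and 0.335% to 8.23% of the others. How reads in shared stretches were divided cannot be told, because the annotation behind the deposited counts is not given in the sources used here.

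Depth was high for all 10 genes. The deposited totals ran from 68737402 to 102644699 estimated counts per library. GNAL had 844 to 3202 counts per library, for which counting error alone gives a coefficient of variation of 1.77% to 3.44%. Levels are given as CPM, counts scaled to a common library size that was corrected by TMM. Libraries carry the numbers 1 to 4 in every group, and same-numbered libraries deviated together, so values are also given from a fit with the number as a block.

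SIDT2 followed its labels. It was at 21.7, 20.5, 18.3 and 19.7 CPM in scramble libraries 1 to 4, at 6.61, 8.27, 5.77 and 6.75 CPM with shRNA-B, and at 5.47, 7.20, 7.58 and 7.55 CPM with shRNA-D. Both hairpins lay below every scramble library, and their ranges overlapped each other. Markers of the line summed to between 970.3 and 1171 CPM in every library, of which VIM alone made up 682 to 957 CPM. In each group 7 of 8 markers had a mean of 1 CPM or more. Single markers were less even than the sum. NEFM was at 86.5 to 119 CPM in number 4 and at 4.22 to 20.9 CPM in numbers 1 to 3. KRT8 was at 6.13 to 7.81 CPM in number 4 and at 28.3 to 42.1 CPM in numbers 1 to 3. Olfactory neuron markers, by contrast, were all under 1 CPM in each group, with 2 of 7 at 0 and a sum of 0.307 to 0.556 CPM. Of the striatal markers 5 of 8 were under 1 CPM, 1 of them at 0, but 3 were at 1 CPM or more and the 8 summed to 23.7 to 37.5 CPM. Of the fibroblast markers and the leukocyte markers 5 of 6 were under 1 CPM in each group. In bulk RNA, fewer cells with a transcript and less of it per cell cannot be told apart.

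GNAL was at 22.3, 35.7, 35.6 and 30.4 CPM in scramble libraries 1 to 4. With shRNA-B it was at 8.65, 15.5, 12.6 and 11.3 CPM, and with shRNA-D at 15.6, 31.5, 27.2 and 24.5 CPM. All 4 shRNA-B libraries were below the lowest scramble library, whereas the shRNA-D libraries overlapped the scramble ones. The means were 30.97 ± 6.32 CPM for scramble, 12.02 ± 2.84 CPM for shRNA-B and 24.7 ± 6.75 CPM for shRNA-D (SD, n = 4 each), so GNAL stood at 38.8% of scramble with shRNA-B and at 79.8% with shRNA-D. On the log2 scale the fitted difference from scramble was -1.37 ± 0.23 (SE) for shRNA-B and -0.33 ± 0.22 for shRNA-D, and shRNA-D was above shRNA-B by 1.04 ± 0.23. With the replicate block the same differences were -1.37 ± 0.07, -0.35 ± 0.07 and 1.03 ± 0.07. Leaving out single libraries moved them between -1.52 and -1.24, between -0.45 and -0.14, and between 0.91 and 1.22. Mean SIDT2 was 6.85 CPM with shRNA-B and 6.95 CPM with shRNA-D.

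**Figure D1:**
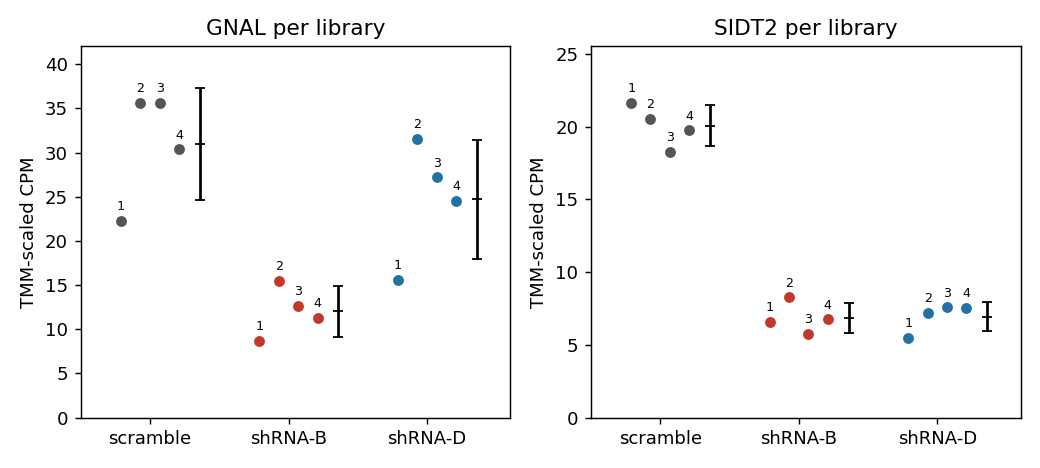
TMM-scaled CPM (y axis) of GNAL and of SIDT2 in each library (x axis: scramble, shRNA-B, shRNA-D); points are libraries labelled with their replicate number, and the bar beside them is mean ± SD. GNAL is lower in every shRNA-B library than in any scramble library and overlaps scramble with shRNA-D, while SIDT2 is low with both hairpins.

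Part of the spread of GNAL within a group went with the replicate number. Library 1 had the lowest GNAL value in every group, and the mean over the 3 groups was 15.5 CPM for number 1, 27.6 for number 2, 25.1 for number 3 and 22.1 for number 4. Within numbers, shRNA-B minus scramble on the log2 scale was -1.31, -1.18, -1.46 and -1.38 for numbers 1 to 4. The corresponding values for shRNA-D were -0.50, -0.17, -0.38 and -0.30. GNAL was thus lower than its same-numbered scramble library in 4 of 4 pairs with each hairpin, including shRNA-D, where the groups overlapped. For shRNA-B this follows from the separation of the groups given above and adds nothing to it. The share of all tested genes lower in 4 of 4 pairs was not counted. Both hairpins are set against the same 4 scramble libraries.

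Genes next to GNAL were looked up in the RefSeq table for GRCh38.p14, used for neighbours alone. Of the genes inside GNAL, overlapping it or within 200 kb, 3 passed the filter. CHMP1B, an ESCRT-III subunit gene inside GNAL, was at 35.5 ± 3.34 CPM in scramble, 39.4 ± 4.22 CPM with shRNA-B and 34.0 ± 2.47 CPM with shRNA-D (SD, n = 4 each). MPPE1, which shares sequence with GNAL, was at 13.9 ± 1.05, 14.3 ± 0.58 and 14.6 ± 0.75 CPM in the same order. IMPA2, an inositol monophosphatase gene that lies near but does not overlap, was at 10.3 ± 1.34, 10.7 ± 3.07 and 12.2 ± 1.88 CPM. The MPPE1 groups overlapped, with log2 fold changes of 0.04 ± 0.09 for shRNA-B and 0.07 ± 0.09 for shRNA-D. None of the 3 was called against scramble by the quasi-likelihood test of edgeR (Benjamini-Hochberg adjusted), with or without the block. At an unadjusted p under 0.05 there were 0 of 3 without the block and, with it, 1 for each hairpin. CHMP1B was lower with shRNA-D than shRNA-B in the block fit by a log2 difference of -0.21 (adjusted p = 0.0302).

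A gene was called at an adjusted p under 0.05 over all 26366 tested genes. Without the block, none of the 9 other alpha subunits was called in any contrast by edgeR. At an unadjusted p under 0.05 there were 1 with shRNA-B, 1 with shRNA-D, 0 for the mean of both hairpins and 2 for shRNA-D against shRNA-B, and DESeq2 called 0, 0, 0 and 1. Over all tested genes DESeq2 called 663, 261, 341 and 815 in the same order. DESeq2 was run on group alone, without the block. Without the block edgeR called 0.876% of all tested genes with shRNA-B, 0.269% with shRNA-D, 0.231% for the mean of both and 0.952% between the hairpins. With the block 1 of 9 was called with shRNA-B, 1 with shRNA-D, 0 for the mean of both (3 at an unadjusted p under 0.05) and 3 between the hairpins. Over all genes the block fit called 9.58% with shRNA-B (4.04% higher, 5.54% lower), 3.3% with shRNA-D (1.05% higher, 2.26% lower) and 5.07% for the mean of both. Between the hairpins it called 12.9% of all genes, 5.91% higher and 6.95% lower with shRNA-D. The median log2 fold change of the 9 was -0.07 with shRNA-B and -0.11 with shRNA-D, beside 0.00 and -0.01 over all tested genes.

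**Figure D2:**
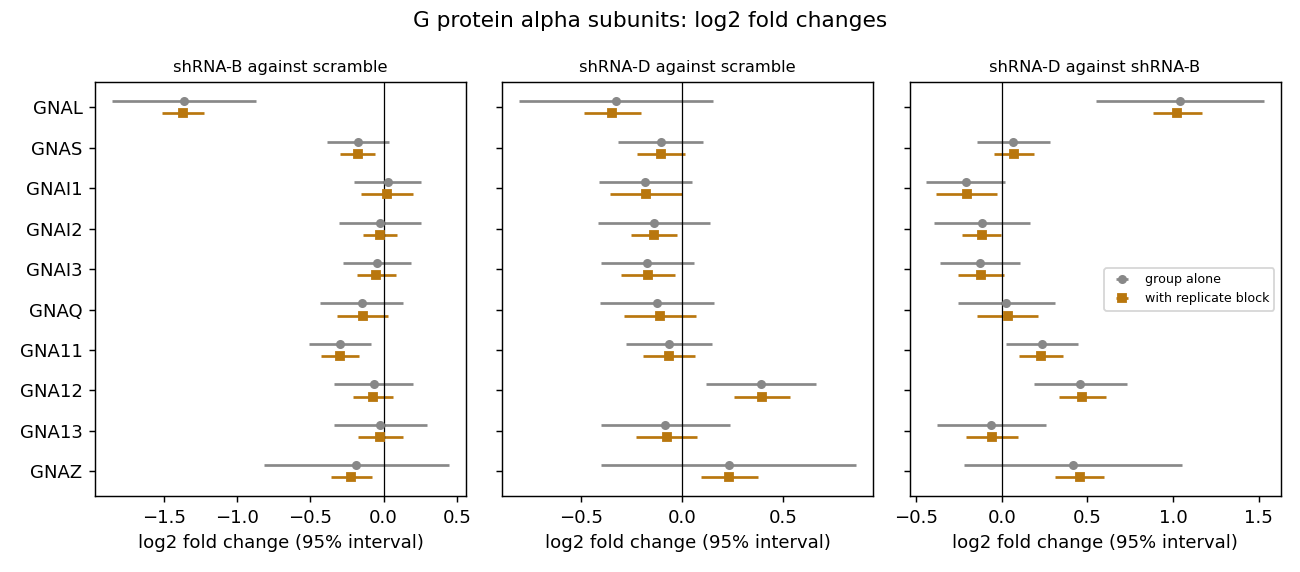
Fitted log2 fold change (x axis) with 95% interval for the 10 alpha subunit genes (y axis) in 3 contrasts; grey circles are the fit on group alone and orange squares the fit with the replicate block. Estimates hardly differ between the fits while intervals narrow with the block. GNAL with shRNA-B, at -1.37, lies farthest from 0, but GNAL was selected on these values. Its intervals are therefore a description and not a test.

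GNAS, the other stimulatory subunit, was the most abundant of the 10. It was at 974, 954, 906 and 830 CPM in scramble, 821, 934, 776 and 717 CPM with shRNA-B, and 888, 907, 815 and 794 CPM with shRNA-D. The groups overlapped, although both hairpins were lower than scramble in 4 of 4 numbered pairs. Its fold change on the log2 scale was -0.17 ± 0.10 (SE) for shRNA-B and -0.11 ± 0.10 for shRNA-D, and neither was called, with an adjusted p of 0.0626 for shRNA-B in the block fit. Per kilobase of the longest annotated transcript GNAS was at 227 CPM in scramble, and the highest value of any other member with its shortest transcript was 68.9 CPM per kb, in GNA13. GNAL lay between 4.74 and 29.8 CPM per kb depending on the transcript assumed. The order of the other members per length depended on that choice.

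The inhibitory subunits showed no called difference from scramble. GNAI1 was at 31.9, 33.4, 36.7 and 30.9 CPM in scramble, 35.3, 27.2, 38.3 and 34.8 with shRNA-B, and 28.1, 30.6, 29.5 and 29.02 with shRNA-D. The shRNA-D libraries lay just below the scramble ones without overlap, at a log2 fold change of -0.18 ± 0.11, while shRNA-B gave 0.03 ± 0.11. GNAI2 was at 93.6, 75.6, 86.7 and 68.1 CPM in scramble, 89.3, 82.4, 80.3 and 66.3 with shRNA-B, and 84.7, 74.2, 74.9 and 60.3 with shRNA-D. GNAI3 was at 160, 160, 176 and 138 CPM in scramble, 163, 136, 179 and 136 with shRNA-B, and 137, 137, 153 and 135 with shRNA-D. Both overlapped between groups, with log2 fold changes of -0.02 ± 0.13 and -0.05 ± 0.11 for shRNA-B and -0.14 ± 0.13 and -0.17 ± 0.11 for shRNA-D. All 3 GNAI genes were lower with shRNA-D in 4 of 4 numbered pairs, but none passed the adjusted test. The pattern was not particular to them, because GNAL, GNAS and GNA11 were also lower with shRNA-D in 4 of 4 pairs. The share of all tested genes with this pattern was not counted, nor the share whose shRNA-D and scramble libraries do not overlap. Their block-fit adjusted p was 0.328 for GNAI1, 0.215 for GNAI2 and 0.199 for GNAI3.

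GNAZ, an inhibitory subunit that pertussis toxin does not modify, lay on opposite sides of scramble with the hairpins within each number. It was at 18.7, 37.6, 34.2 and 26.1 CPM in scramble, 13.9, 35.2, 31.5 and 21.8 CPM with shRNA-B, and 22.5, 43.1, 40.8 and 30.4 CPM with shRNA-D. Library 1 was lowest and library 2 highest in every group, so the groups overlapped widely, yet shRNA-B was lower and shRNA-D higher than scramble in 4 of 4 numbered pairs. Without the block the log2 fold changes were -0.19 ± 0.29 and 0.23 ± 0.29, and neither was called. In the block fit they were -0.22 ± 0.07 (adjusted p = 0.0524) and 0.23 ± 0.07 (adjusted p = 0.0784). Between the hairpins GNAZ differed with the block, being higher with shRNA-D by 0.45 ± 0.07 (adjusted p = 0.000653), and not without it, at 0.42 ± 0.29 (adjusted p = 0.770). It stayed called in 12 of 12 block fits that left out a single library. The share of all tested genes on opposite sides of scramble in this way was not counted.

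GNAQ and GNA11 encode the subunits that act on phospholipase C beta. GNAQ was at 83.4, 99.1, 113 and 75.7 CPM in scramble, 84.5, 72.3, 101 and 77.3 with shRNA-B, and 85.5, 86.1, 90.0 and 79.3 with shRNA-D. The groups overlapped, with log2 fold changes of -0.15 ± 0.13 and -0.12 ± 0.13 that were not called. GNA11 was at 75.9, 62.0, 63.7 and 67.9 CPM in scramble, 56.4, 57.5, 48.9 and 56.3 CPM with shRNA-B, and 71.9, 60.4, 58.1 and 67.4 CPM with shRNA-D. Every shRNA-B library was below every scramble library and every shRNA-D library, whereas shRNA-D overlapped scramble. The share of all tested genes whose groups separate in this way was not counted. Within numbers, GNA11 was lower than scramble in 4 of 4 pairs with each hairpin. With shRNA-B GNA11 stood at 81.3% of scramble, a log2 fold change of -0.30 ± 0.10 (adjusted p = 0.310) without the block and -0.30 ± 0.06 (adjusted p = 0.00641) with it. The block call held in 12 of 12 fits that left out a single library. Between the hairpins GNA11 was higher with shRNA-D by 0.23 ± 0.06 in the block fit (adjusted p = 0.0212), a call that held in 7 of 12 such fits. It was lost without shRNA-B library 1, 3 or 4 and without shRNA-D library 1 or 4, with an adjusted p of up to 0.101.

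GNA12 and GNA13 encode the subunits of the G12/13 class. GNA12 was at 35.3, 43.2, 38.0 and 33.3 CPM in scramble, 30.7, 44.4, 35.7 and 32.1 CPM with shRNA-B, and 50.3, 53.4, 49.8 and 43.1 CPM with shRNA-D. The shRNA-D libraries were the highest of their number in 4 of 4 sets, and 1 of them, library 4, overlapped the top of the scramble range. GNA12 with shRNA-D stood at 131% of scramble, a log2 fold change of 0.39 ± 0.13 (adjusted p = 0.524) without the block and 0.40 ± 0.06 (adjusted p = 0.00355) with it. Against shRNA-B it was higher by 0.46 ± 0.13 (adjusted p = 0.144) without the block and by 0.47 ± 0.06 (adjusted p = 0.000438) with it. Both block calls held in 12 of 12 fits without a library. The comparison of hairpins was also called by DESeq2, and without the block it was called when shRNA-B library 2 was left out (adjusted p = 0.0156). GNA13 was at 79.5, 108, 118 and 108 CPM in scramble, 83.1, 91.7, 119 and 114 with shRNA-B, and 81.3, 99.7, 97.7 and 112 with shRNA-D. Its groups overlapped, and the log2 fold changes were -0.02 ± 0.15 and -0.08 ± 0.15.

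**Figure D3:**
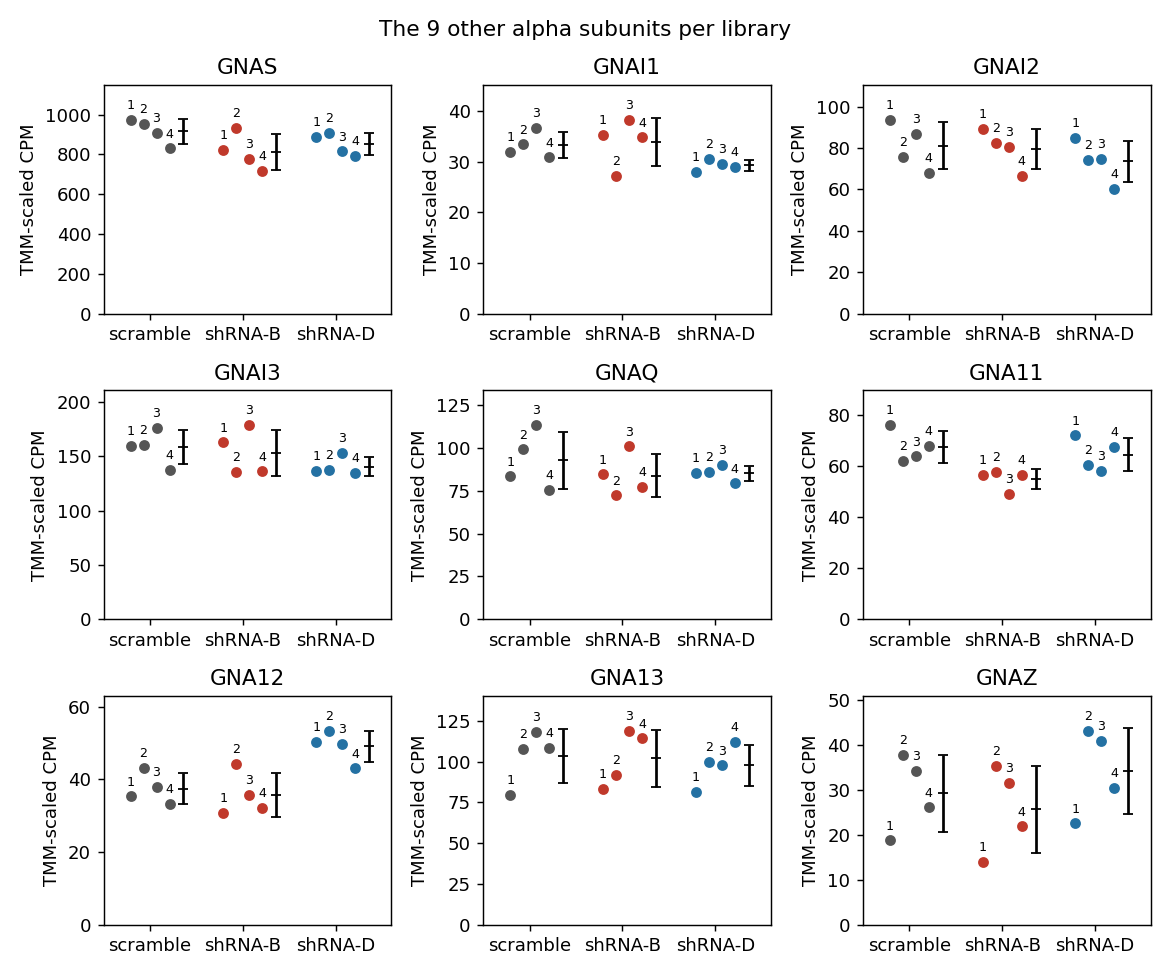
TMM-scaled CPM (y axis, starting at 0) of the 9 other alpha subunits by group (x axis); points are libraries labelled with their replicate number, and the bar beside them is mean ± SD. GNA11 is lower in all shRNA-B libraries, GNA12 is higher with shRNA-D, and GNAZ keeps the same order of numbers in every group.

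The replicate number moved with several members. Averaged over the groups, number 1 lay below the group mean by a log2 deviation of -0.49 in GNAL, -0.63 in GNAZ and -0.30 in GNA13, and above it by 0.20 in GNAI2. Number 2 lay above it by 0.33 in GNAL, 0.44 in GNAZ and 0.22 in GNA12. Over the 12 libraries, which share these numbers, Pearson's r of log2 CPM with GNAL was 0.66 for GNAZ and between -0.22 and 0.49 for the other 8. What the numbers stand for is not stated, and their part in these correlations was not tested.

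**Figure D4:**
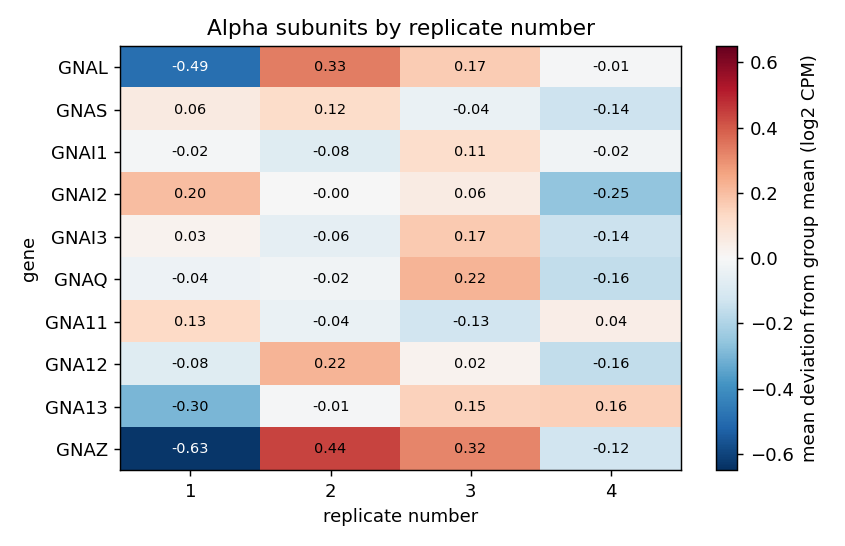
Mean log2 deviation from the group mean (colour and printed value) for each alpha subunit gene (y axis) and replicate number (x axis), averaged over the 3 groups. GNAL and GNAZ are low in number 1 and high in number 2, and the other genes vary less or in another order.

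Among 11476 tested genes with a symbol and a mean of at least 5 CPM, the 6 whose log2 values ran most like GNAL over the 12 libraries were DEAF1 (r = 0.979), CDCA4 (0.969), DTL (0.967), UVRAG (0.963), NCS1 (0.962) and UBE2D2 (0.961). They were chosen for this likeness, so their values are a description. DEAF1, a transcription factor gene, was at 75.7, 112.6, 99.4 and 93.5 CPM in scramble, 33.03, 63.6, 50.7 and 47.5 CPM with shRNA-B, and 66.9, 106.3, 97.2 and 85.9 CPM with shRNA-D. As in GNAL, library 1 was lowest in each group and shRNA-B lay below scramble without overlap. DTL, which encodes a substrate receptor of a ubiquitin ligase, had means of 163 ± 19.8, 105.3 ± 16.3 and 156.8 ± 14.5 CPM (SD, n = 4 each) in scramble, shRNA-B and shRNA-D. NCS1, a neuronal calcium sensor gene, had means of 61.9 ± 6.45, 39.6 ± 8.83 and 59.3 ± 6.72 CPM. None of the 6 is an alpha subunit gene.

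The other genes of G protein signalling were taken from lists of 176 genes, of which 141 were tested. Without the block edgeR called 1 lower with shRNA-B, 0 with shRNA-D and 1 higher with shRNA-D than shRNA-B. At an unadjusted p under 0.05 the counts were 16, 11 and 14, and DESeq2 called 5, 1 and 4. Over all 26366 tested genes DESeq2 called 663, 261 and 815. No count over all genes was made at the unadjusted threshold, so those 3 counts have nothing to be read against. With the block 7 were higher and 14 lower with shRNA-B, which is 14.9% of those tested, beside 9.58% over all genes. With shRNA-D 6 were higher and 6 lower (8.51%, beside 3.3%), and between the hairpins 17 were higher and 8 lower with shRNA-D (17.7%, beside 12.9%). Of the block calls 11 of 21, 2 of 12 and 11 of 25 held in all 12 fits that left out a single library. No list's share was tested against that over all genes or between the hairpins. All calls in the rest of this account that name no other fit are from the block fit. Every DESeq2 count is from a fit without the block, so it is not a like comparison with block calls.

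With shRNA-B 1 of 5 beta genes, 0 of 8 tested gamma genes (2 at an unadjusted p under 0.05, and 0 by DESeq2) and 2 of 10 tested chaperones and modulators were called, beside 9.58% over all genes. With shRNA-D the counts were 0 of 5 (1 at an unadjusted p under 0.05, and 0 by DESeq2), 2 of 8 and 2 of 10, beside 3.3%. GNB1, an abundant beta subunit gene, was at 324, 293 and 324 CPM on average in scramble, shRNA-B and shRNA-D, and GNB2 at 92.8, 93.7 and 89.3 CPM, with no call. Among 5 beta genes, GNB4 was lower with shRNA-B, at 52.0 ± 9.72 against 71.5 ± 14.9 CPM in scramble (SD, n = 4 each), a log2 fold change of -0.45 ± 0.08 (adjusted p = 0.00278). Among 8 tested gamma genes GNG12 was lower with shRNA-D than shRNA-B (-0.47 ± 0.09, adjusted p = 0.00513), at 89.1 ± 3.25 against 125.1 ± 25.6 CPM. GNG4 was higher (0.26, adjusted p = 0.0282) and GNG7, the gamma subunit known to pair with G-olf in the striatum, lower (-0.24, adjusted p = 0.0452) with shRNA-D, calls kept in 6 and 1 of 12 fits without a library.

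Among 10 tested chaperones and modulators, PDCL, a phosducin-like gene that helps beta-gamma assembly, was lower with shRNA-B (-0.52 ± 0.07, adjusted p = 0.000255), at 23.9 ± 4.09 against 34.2 ± 5.64 CPM. RIC8B, the chaperone gene for the stimulatory subunits including G-olf, was at 23.7, 22.8 and 22.2 CPM in scramble, shRNA-B and shRNA-D, with log2 fold changes of -0.05 ± 0.11 and -0.10 ± 0.11, and was not called. RIC8A, the chaperone gene for the other classes, was higher with shRNA-B (0.19, adjusted p = 0.0346), kept in 1 of 12 fits without a library. CCDC88C and GPSM2, which bind inhibitory subunits, were lower with shRNA-D (-0.29 and -0.27, adjusted p = 0.0145 and 0.0223), each kept in 5 of 12. The 3 tested alpha genes outside the 10 were not called, with or without the block, and at an unadjusted p under 0.05 there were 0 with either hairpin without the block and 1 and 0 with it. DESeq2 called 0 of these. GNAO1, a further member of the inhibitory class, was at 3.88, 4.65 and 4.24 CPM.

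Among 15 tested RGS genes, whose products speed GTP hydrolysis, RGS10 was higher under both hairpins, by 0.43 ± 0.09 for shRNA-B and 0.37 ± 0.09 for shRNA-D (adjusted p = 0.00732 and 0.0338). Its means were 16.5 ± 1.85, 22.4 ± 3.75 and 21.5 ± 2.54 CPM in scramble, shRNA-B and shRNA-D. The shRNA-D call was kept in 7 of 12 fits without a library. RGS20 was lower with shRNA-B (-0.52, adjusted p = 0.0138) and was lost without scramble library 2 or 4 or shRNA-B library 1. RGS16 was higher with shRNA-D than shRNA-B (0.31, adjusted p = 0.0421), kept in 6 of 12. The list thus had 1 of 15 higher and 1 lower with shRNA-B, beside 9.58% called over all genes. It had 1 higher with shRNA-D, beside 3.3%, and 1 higher between the hairpins, beside 12.9%.

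Of 20 tested receptors that couple to Gs, GPR3, which signals without an added ligand, was higher with shRNA-B (0.67 ± 0.14, adjusted p = 0.00713), at a low level of 1.83 ± 0.50 against 1.15 ± 0.33 CPM. GIPR, the receptor for the incretin GIP, was higher with shRNA-D than shRNA-B (0.50 ± 0.10, adjusted p = 0.0062). PTH1R was lower with shRNA-B (-0.47, adjusted p = 0.0393) and VIPR2 higher with shRNA-D than shRNA-B (1.12, adjusted p = 0.0488), kept in 1 and 0 of 12 fits without a library. The receptors thus had 1 of 20 higher and 1 lower with shRNA-B, beside 9.58% called over all genes. They had 0 calls with shRNA-D (1 at an unadjusted p under 0.05, and 0 by DESeq2), beside 3.3%. Between the hairpins 3 were higher and 0 lower, beside 12.9%. Of 8 tested genes for receptor kinases and arrestins, which switch receptors off, GRK5 and ARRB1 were lower with shRNA-B (-0.53 ± 0.07 and -0.38 ± 0.06, adjusted p = 0.000502 and 0.00142). GRK5 stood at 9.09 ± 1.07 against 13.2 ± 2.34 CPM and ARRB1 at 17.9 ± 3.16 against 23.2 ± 2.85 CPM. These were 2 of 8 lower and 0 higher, beside 5.54% lower and 4.04% higher over all genes. With shRNA-D 0 of 8 were called (0 at an unadjusted p under 0.05), beside 3.3% over all genes.

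Of 8 tested adenylyl cyclases, the enzymes that G-olf and Gs stimulate, ADCY3, the olfactory form, was at 59.3, 56.2 and 59.7 CPM in scramble, shRNA-B and shRNA-D and was not called. ADCY6 was at 34.0, 36.6 and 36.2 CPM and was not called either. ADCY7 was higher with shRNA-D than shRNA-B (0.68 ± 0.09, adjusted p = 0.000337), at 10.5 ± 3.83 against 6.63 ± 2.77 CPM. It was lower with shRNA-B than with scramble (-0.37, adjusted p = 0.0185), a call lost without scramble library 1 or 4 or shRNA-B library 1 or 4. ADCY5, the main striatal cyclase, was at 1.56, 1.26 and 1.92 CPM, and its difference between the hairpins (0.57, adjusted p = 0.0416) was kept in 5 of 12 fits. The cyclases thus had 1 of 8 lower and 0 higher with shRNA-B, beside 9.58% called over all genes. They had 0 calls with shRNA-D (1 at an unadjusted p under 0.05, and 0 by DESeq2), beside 3.3%. Between the hairpins 2 were higher and 0 lower, beside 12.9%.

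The 16 phosphodiesterases, which break down cAMP or cGMP, had 4 called lower and 0 higher with shRNA-B by edgeR's block fit, beside 5.54% lower and 4.04% higher over all genes. With shRNA-D 0 of 16 were called (3 at an unadjusted p under 0.05, and 0 by DESeq2), beside 3.3% over all genes, a share at which so short a list need hold no call. Between the hairpins 3 were higher with shRNA-D, beside 5.91% over all genes: PDE8A (0.41 ± 0.06, adjusted p = 0.00101), PDE7A (0.20, adjusted p = 0.0269, kept in 8 of 12 fits without a library) and PDE10A (0.26, adjusted p = 0.0462, kept in 6 of 12). PDE8A was at 38.0, 43.3, 47.3 and 41.6 CPM in scramble, 24.0, 29.7, 30.6 and 32.8 CPM with shRNA-B, and 34.5, 41.4, 38.6 and 40.2 CPM with shRNA-D. Every shRNA-B library was below every scramble library, a separation whose share over all tested genes was not counted. It was the gene called without the block, at -0.54 ± 0.11 (adjusted p = 0.0378), and that call was lost without scramble library 2, 3 or 4, shRNA-B library 1 or 3, or shRNA-D library 3 (adjusted p up to 0.107). With the block the adjusted p was 0.000127, and the call held in all 12 such fits. PDE10A, known from striatal neurons, was lower with shRNA-B (-0.37 ± 0.08, adjusted p = 0.00819), at 13.8 ± 1.69 against 17.8 ± 1.54 CPM. PDE7A (-0.26, adjusted p = 0.00864) was lost without scramble library 1 or shRNA-B library 1, and PDE7B (-0.997, adjusted p = 0.0321) was kept in 7 of 12 fits.

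Among 17 tested genes for protein kinase A, EPAC and CREB, the targets of cAMP, PRKAR1A, a regulatory subunit of protein kinase A, was called without the block. It was at 163.9, 199.4, 223.1 and 179.6 CPM in scramble, 154.9, 159.0, 180.7 and 156.7 CPM with shRNA-B, and 246.3, 235.2, 232.0 and 232.9 CPM with shRNA-D. Every shRNA-D library was above every library of the other groups, a separation whose share over all tested genes was not counted. shRNA-D exceeded shRNA-B by 0.54 ± 0.10 (adjusted p = 0.0200 without the block and 0.000372 with it), and the unblocked call held in 12 of 12 fits without a library. Against scramble it was higher with shRNA-D in the block fit (0.32 ± 0.07, adjusted p = 0.0308), kept in 7 of 12. PKIA, an inhibitor of the catalytic subunits, was higher with both hairpins, by 0.42 ± 0.09 with shRNA-B and 0.63 ± 0.09 with shRNA-D (adjusted p = 0.00815 and 0.00126), at 11.998 ± 3.30 and 14.1 ± 4.35 against 9.26 ± 3.33 CPM. PRKACA was lower with shRNA-B (-0.23, adjusted p = 0.0249), RAPGEF4 lower with shRNA-D (-0.31, adjusted p = 0.0360) and PRKAR2A lower with shRNA-D than shRNA-B (-0.24, adjusted p = 0.0185), kept in 6, 1 and 7 of 12. The list thus had 1 of 17 higher and 1 lower with shRNA-B, beside 9.58% called over all genes. It had 2 higher and 1 lower with shRNA-D, beside 3.3%. Between the hairpins 2 were higher and 2 lower, beside 12.9%.

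Of 9 tested CREB target genes 1 was called with shRNA-B, beside 9.58% over all genes. It was PER1 (0.23, adjusted p = 0.0316), kept in 3 of 12 fits without a library. With shRNA-D 0 of 9 were called (1 at an unadjusted p under 0.05, and 0 by DESeq2), beside 3.3% over all genes. Between the hairpins FOS (0.34 ± 0.08, adjusted p = 0.0110) and PPARGC1A (0.72 ± 0.15, adjusted p = 0.0060) were higher with shRNA-D, and PER1 was lower (-0.21, adjusted p = 0.0379), kept in 0 of 12. The block fit called 12.9% of all genes between the hairpins. FOS spanned 7.19 to 42.4 CPM over the 12 libraries, high in numbers 2 and 3 and low in numbers 1 and 4 of each group.

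The 15 genes listed for Gq effectors include those for phospholipase C beta, protein kinase C and exchange factors. Of these 15, 2 were higher and 2 lower with each hairpin, beside 9.58% called over all genes with shRNA-B and 3.3% with shRNA-D. PRKCE, a protein kinase C, was higher with shRNA-B and shRNA-D (0.37 ± 0.08 and 0.47 ± 0.08, adjusted p = 0.00914 and 0.00482), at 13.9 ± 1.93 and 14.8 ± 1.97 against 10.8 ± 1.99 CPM. PLCB3 was also higher with both (0.31 ± 0.06 and 0.28 ± 0.06, adjusted p = 0.00341 and 0.0140), with the shRNA-D call kept in 7 of 12 fits without a library. PLCB1 was lower with both (-0.52 ± 0.12 and -0.69 ± 0.12, adjusted p = 0.0234 and 0.0121), at 18.9 ± 4.03 and 16.5 ± 1.89 against 27.2 ± 6.56 CPM. The PLCB1 calls were lost without scramble library 3 for shRNA-B and without shRNA-D library 1 for shRNA-D. PRKCB was lower with shRNA-D (-0.38, adjusted p = 0.0254, kept in 3 of 12) and KALRN lower with shRNA-B (-0.38, adjusted p = 0.0129, lost without scramble library 3 or shRNA-B library 1 or 3). Of 7 G12/13 effector genes none was called with either hairpin, with or without the block or by DESeq2. At an unadjusted p under 0.05 edgeR gave 1 with shRNA-B and 0 with shRNA-D without the block, and 2 and 0 with it. For 7 genes, shares of 9.58% and 3.3% over all genes need give no call.

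The calls between the hairpins not given above were 6 higher and 5 lower with shRNA-D. GNB4 (0.39 ± 0.08, adjusted p = 0.00592), PDCL (0.42 ± 0.07, adjusted p = 0.0011), GRK5 (0.49 ± 0.07, adjusted p = 0.000809) and ARRB1 (0.40 ± 0.06, adjusted p = 0.000888) were higher and held in 12 of 12 fits without a library. PTH1R (0.52) and PRKACA (0.22) were also higher, kept in 7 and 6 of 12. CCDC88C (-0.26), GPSM2 (-0.23), RAPGEF4 (-0.25), PRKCB (-0.28) and TRIO (-0.20) were lower, kept in 8, 8, 1, 0 and 1 of 12.

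**Figure D5:**
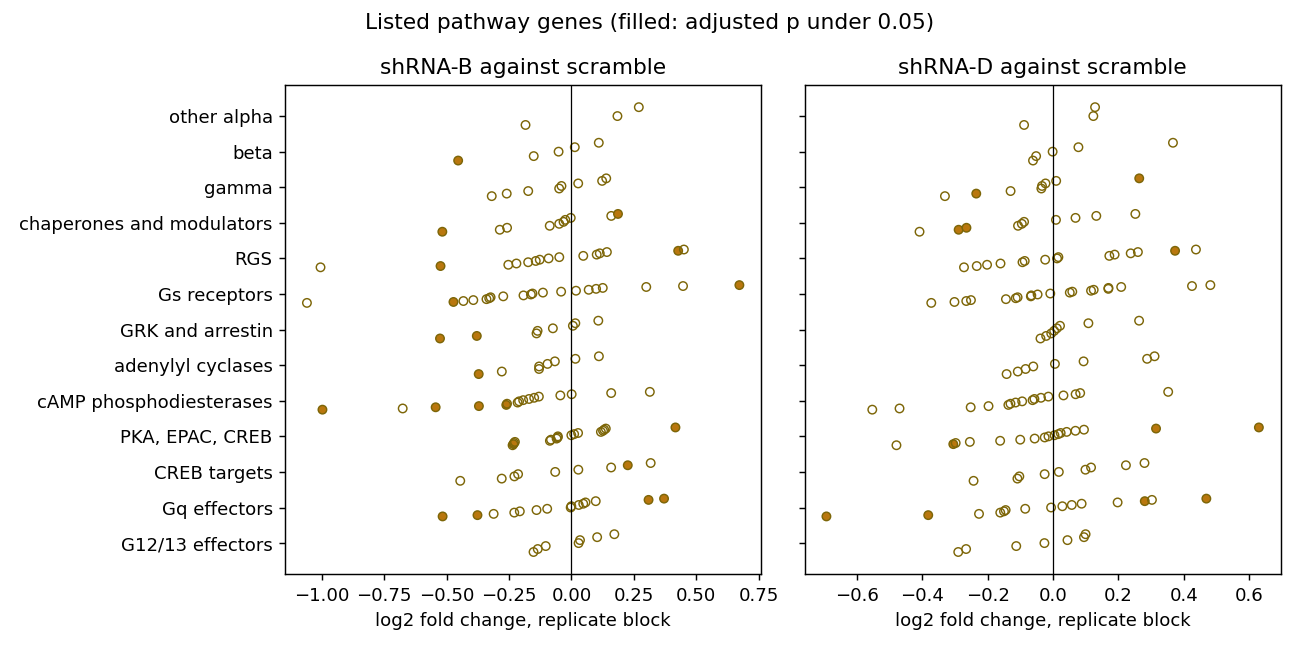
Log2 fold change from the fit with the replicate block (x axis) for tested genes of each list (y axis), with shRNA-B on the left and shRNA-D on the right; each circle is a gene and filled circles are called. Of the genes drawn 21 are filled with shRNA-B and 12 with shRNA-D, and called genes lie on both sides of 0 in each panel.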

How the data were processed

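RNA was measured by sequencing of poly(A) RNA in 12 libraries. The authors deposited estimated counts per gene. The tools were fastp and kallisto, per the submitters' processing notes; no version, build or annotation is given in the sources used here. A symbol was found for 60443 of 85298 identifiers. Those estimated counts were rounded to integers, scaled by TMM and filtered with filterByExpr. Groups were compared with edgeR 4.0.16 (R 4.3.3) quasi-likelihood tests over all 12 libraries and 26366 genes, with Benjamini-Hochberg adjustment. Code was tested on simulated data. The design text calls the libraries biological replicates without describing separate cultures, and p-values thus reflect only how these libraries vary.

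Replicate numbers recur in every group. Deviations from group means correlated at 0.314 to 0.779 in 12 same-number pairs and at -0.516 to 0.493 in 36 others, so the numbers pair the libraries by the data; the labels do not tell what is common to a number. The block lowered the common biological coefficient of variation from 25.0% to 12.1%.

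The members and lists were chosen with earlier results of these data known. Named genes were the members, SIDT2 and the listed genes called with or without the block, beyond a planned limit of up to 4 block calls per list. Always named were 9 genes for alpha, beta and gamma subunits, chaperones and adenylyl cyclases. The 6 genes with the highest correlation with GNAL and genes within 200 kb of it were named too. Alternatives were the block, RLE and upper-quartile scaling, no filter, 2 groups alone, DESeq2 1.42.0 without the block and leaving out each library.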

Additional observations from a re-analysis of the deposited data

Results flagged for a closer look

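In groups of 4 libraries, a library was taken to stand apart when its gap to the nearest other value, over the group's range, exceeded Dixon's 95% critical value. Chance gives this in about 1 in 20 groups, and 30 groups were examined. GNAI3 in shRNA-D library 3, at 153 CPM, stood above the other shRNA-D libraries, which lay between 135 and 137 CPM. GNA11 in shRNA-B library 3, at 48.9 CPM, stood below the others, which lay between 56.3 and 57.5 CPM. The call of GNA11 with shRNA-B in the block fit held without that library. GNAZ was lower than scramble in 4 of 4 numbered pairs with shRNA-B and higher in 4 of 4 with shRNA-D. The log2 difference between the hairpins was 0.42 without the block and 0.45 with it, and the test of this difference passed in the block fit alone. That fit called 12.9% of all genes between the hairpins. Both hairpins are set against the same 4 scramble libraries, and the share of all tested genes with this opposite pattern was not counted.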

How the results depend on the processing

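The 9 alpha subunits had 0 calls without the block in each contrast. With the replicate block there were 1 with shRNA-B, 1 with shRNA-D and 3 between the hairpins, and DESeq2 gave 1 between the hairpins. Pathway calls with shRNA-B went from 1 to 21 with the replicate block, 0 with only the 2 groups compared and 5 by DESeq2. With shRNA-D they went from 0 to 12 with the block, 1 without a filter and 1 by DESeq2. Between the hairpins they went from 1 to 25 with the block, 2 with upper-quartile scaling and 4 by DESeq2. Leaving out single libraries, with or without the block, gave 0 to 3, 0 to 2, 0 to 1 and 0 to 4 alpha subunits for shRNA-B, shRNA-D, their mean and the hairpin difference. It gave 0 to 24, 0 to 20 and 1 to 31 pathway genes for shRNA-B, shRNA-D and the hairpin difference. In the fits on all 12 libraries the block changed no other alpha subunit call. Block fits without a library called further members. With shRNA-B these were GNAS in 1 fit and GNAZ in 1, and with shRNA-D GNAZ in 2. For the mean of both it was GNA11 in 1, and between the hairpins GNAI1 in 1.

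Directions of small, uncalled values turned when single libraries were left out. With shRNA-B the log2 fold change ran from -0.025 to 0.127 for GNAI1, -0.098 to 0.061 for GNAI2, -0.119 to 0.0036 for GNAI3, -0.194 to 0.0026 for GNA12, -0.122 to 0.060 for GNA13 and -0.386 to 0.019 for GNAZ. With shRNA-D it ran from -0.111 to 0.025 for GNA11 and -0.164 to 0.010 for GNA13. For the mean of both it ran from -0.146 to 0.014 for GNAI2, -0.143 to 0.022 for GNA13 and -0.123 to 0.174 for GNAZ. Between the hairpins it ran from -0.025 to 0.137 for GNAQ and -0.124 to 0.032 for GNA13. GNAL kept its direction in every setting, but it was selected on values of these same libraries, so this is a description and no support. Over all genes 49.0% of calls between the hairpins were higher with shRNA-D, and 61.0% with upper-quartile scaling. The fit on only 2 groups does not exist for the mean of both hairpins.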
